A study of Homo sapiens with 6 samples.

Results

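The chains of the fibrillar, basement membrane and type VI collagens were followed in RNA-seq of U2OS cells, an established human osteosarcoma line. The set held 10 of the 19937 genes in the count table: COL1A1, COL1A2, COL3A1, COL4A1, COL4A2, COL5A1, COL5A2, COL6A1, COL6A2 and COL6A3. They were taken by symbol as the chains of types I, III, IV, V and VI, and this set was chosen with earlier results of the same contrast known, so the values of the chains between the groups are a description and carry no test. The 6 libraries were 3 of shSQLE and 3 of shControl. The shSQLE cells stably carried a short hairpin RNA against SQLE, the gene of squalene epoxidase, an enzyme of cholesterol synthesis. The shControl cells carried a scrambled hairpin. Cells of both groups had received the hairpin from a pGIPZ lentiviral vector, had been selected with puromycin and were grown in the same medium with fetal bovine serum, so that vector and selection were shared. Which hairpin against SQLE was present in the sequenced cells, and whether the libraries came from separate cultures, are not given in the sources used here. The p-values below therefore measure only the spread between these libraries, which may be technical.

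Collagens are triple-helical proteins of the extracellular matrix. Type I is assembled from the products of COL1A1 and COL1A2, type III from COL3A1 alone, the most widespread form of type IV from COL4A1 and COL4A2, the common form of type V from COL5A1 and COL5A2, and the classical form of type VI from COL6A1, COL6A2 and COL6A3. Types I and III form the thick fibrils of bone, tendon and skin, and type V takes part in starting these fibrils and limiting their width. Type IV forms the sheet-like network of basement membranes, and type VI forms beaded microfilaments around cells. Osteoblasts deposit type I collagen as the main protein of bone matrix.

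The start regions of 4 stretches are shown because they let the chains of types IV, V and VI be compared at the level of DNA. A window from 250 bases before to 50 bases after the start site was found in RefSeq (GRCh38.p14) for 5 chains, COL4A1, COL4A2, COL5A1, COL6A2 and COL6A3. COL4A1 and COL4A2 are read in opposite directions from RefSeq start sites 127 bases apart, and the first stretch holds the bases between them, on the strand of COL4A2. The other stretches are the 250 bases before each start, on the strand of the gene. Capitals mark matches to the GC box (GGGCGG, or CCGCCC where it lies on the opposite strand), the CCAAT box and the TATA box (TATAAA). The stretches lie at chr13:110307158-110307283 for COL4A1 and COL4A2, at chr9:134641553-134641802 for COL5A1 and at chr21:46097862-46098111 for COL6A2, all on the plus strand, and at chr2:237414165-237414414 on the minus strand for COL6A3. The GENCODE v44 loci of COL4A2 and COL6A3 begin upstream of these RefSeq starts, that of COL4A2 at 110305812, within the locus of COL4A1.
COL4A1-COL4A2: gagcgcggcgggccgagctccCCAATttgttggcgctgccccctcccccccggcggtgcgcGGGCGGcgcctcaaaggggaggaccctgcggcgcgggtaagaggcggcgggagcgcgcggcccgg
COL5A1: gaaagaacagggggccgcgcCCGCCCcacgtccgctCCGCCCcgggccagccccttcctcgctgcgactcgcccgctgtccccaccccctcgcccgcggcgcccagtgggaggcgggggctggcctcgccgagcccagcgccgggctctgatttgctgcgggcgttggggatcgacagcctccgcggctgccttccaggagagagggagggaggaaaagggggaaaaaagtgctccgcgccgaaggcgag
COL6A2: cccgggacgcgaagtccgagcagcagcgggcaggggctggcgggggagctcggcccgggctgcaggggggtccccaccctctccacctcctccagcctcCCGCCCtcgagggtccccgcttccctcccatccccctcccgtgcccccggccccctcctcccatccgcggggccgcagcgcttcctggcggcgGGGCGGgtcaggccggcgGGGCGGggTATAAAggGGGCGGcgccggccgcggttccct
COL6A3: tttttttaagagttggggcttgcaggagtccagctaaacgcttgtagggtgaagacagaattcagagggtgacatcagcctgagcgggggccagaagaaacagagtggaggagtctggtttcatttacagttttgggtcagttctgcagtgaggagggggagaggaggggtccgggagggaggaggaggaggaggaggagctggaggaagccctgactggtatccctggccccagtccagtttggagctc

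Of the 5 windows, 4 were rich in G and C and in CpG, with a GC content of 76.7% and 45 CpG in COL4A1, 77.7% and 45 in COL4A2, 74% and 36 in COL5A1 and 79.3% and 36 in COL6A2, where the median of 35116 RefSeq windows was 58.7% with 14 CpG. The window of COL6A3 stood apart from that of COL6A2, its partner in type VI, with 56.3% GC and 4 CpG. On either strand, the 300-base windows held 2 GC boxes in COL4A1, 1 in COL4A2, 2 in COL5A1, 4 in COL6A2 and none in COL6A3, against 45% of all windows with at least 1. COL4A1 and COL4A2 shared 1 CCAAT box in the bases between their starts (34.6% of all windows held this motif), and COL6A2 had the only TATA box among the 5 (11.5% of all windows). The letters of an AP-1 site (TGANTCA), found in 7.7% of all windows, were in none of the 5. The motifs do not overlap each other in the printed stretches, and a match of letters is not a measured binding site.

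Totals per library ranged from 12212378 to 14393292 counts. SQLE was at 1713 ± 317 normalized counts in shControl and 217.4 ± 12.6 in shSQLE (SD, n = 3 each), 12.7% of the control level, with groups that did not overlap (log2 fold change -2.98, and -3.12 without shControl replicate 1), so the silenced gene went with the labels. Normalized counts were scaled by TMM to a common effective library size, the mean of the 6. One library stood apart from its group. The root mean square of log2 differences across tested genes was 0.55 and 0.593 between shControl replicate 1 and the other 2 controls, 0.225 between shControl replicates 2 and 3, and 0.259 to 0.336 within shSQLE. Over the tested genes, the median of this departure moved with GC content. The median log2 difference of shControl replicate 1 from the other controls was -0.58 among the genes lowest in GC (30.7% to 40.6%) and 0.56 among those highest (58.6% to 76%). Among the chains, COL4A1 and COL5A2 were farthest below the other controls in this library (-0.76 and -0.75), followed by COL6A3 (-0.55), and COL6A2 was farthest above (0.69). COL1A1 (0.07), COL4A2 (0.03) and COL5A1 (-0.13) differed little, and COL6A1 was at 0.25. Most chains did not lie at the median for their GC content. COL4A1 (55.2% GC) and COL6A3 (53.1%) were below 0, where genes at 51.9% to 58.6% had a median of 0.3. COL5A2 (48.3%) was below the median of -0.06 at 45.5% to 51.9%. Against the median of 0.56 among the genes highest in GC, COL6A2 (66.4%) lay above. COL1A1 (61.5%), COL4A2 (61.8%), COL5A1 (60.2%) and COL6A1 (63.5%) lay below it. Values are therefore also given without this library. The mean of the shSQLE libraries also differed from shControl replicates 2 and 3 along GC content. The median log2 difference was -0.24 among the genes lowest in GC and 0.19 among those highest. A trend with GC content between the groups thus remains in the values without shControl replicate 1. The part of GC content in the fold changes was not tested beyond a fit with offsets for GC content and transcript length. Of the 7 markers of the osteoblast lineage, RUNX2 and SPP1 were among those expressed, whereas SP7, ALPL and IBSP were at 3 or fewer counts in every library. The summed level of the 7 was 32.7 to 49 CPM (counts scaled to a fixed library total) in shControl and 34.6 to 44.8 in shSQLE. Of the 13 markers of epithelial cells, endothelial cells, leukocytes and adipocytes, 10 were at 3 or fewer counts, and their summed levels were at most 5.52 CPM per cell type. The endothelial sum was 0.942 to 1.16 CPM in shControl and 0.152 to 0.512 in shSQLE, and its part in the collagen values was not tested. This sum was mostly 1 gene with few counts, PECAM1, at 9, 15 and 15 counts in shControl and 4, 6 and 2 in shSQLE. The other endothelial markers, VWF and CDH5, were at 3 or fewer counts in every library.

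**Figure D1:**
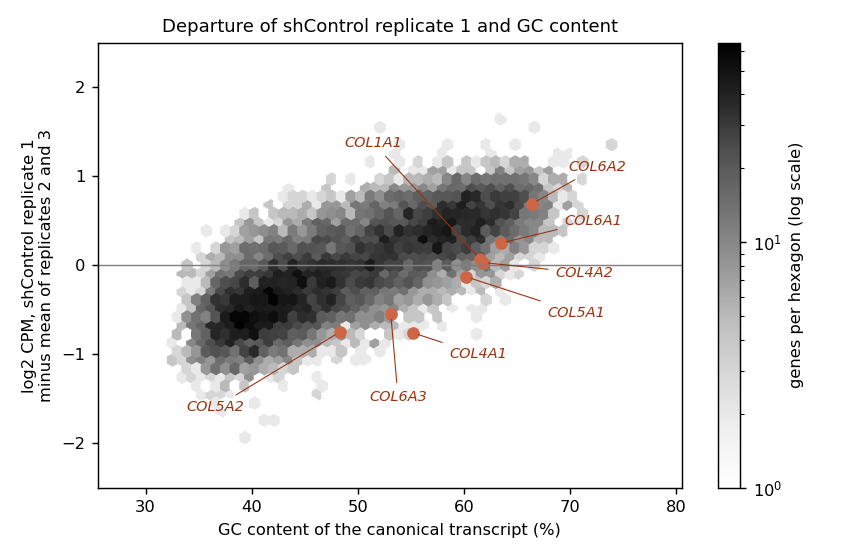
Departure of shControl replicate 1 from shControl replicates 2 and 3 (y axis, log2 CPM) against the GC content of each gene's canonical transcript in percent (x axis). Grey hexagons count the tested genes on a log scale and orange points are the 8 tested chains, of which COL4A1, COL5A2 and COL6A3 lie below 0 and COL6A2 lies above it.

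COL1A1, COL5A1, COL6A1, COL6A2 and COL6A3 were called lower in shSQLE, as were 2.84% of all genes tested. Among the tested chains, COL5A1, COL6A1 and COL6A2 stood at 23.7% to 32% of their control levels, COL6A3, COL1A1 and COL4A1 at 55.4% to 64.7%, and COL4A2 and COL5A2 at 78.7% and 84.8%. All 10 chains together took 0.185% ± 0.0201 of the counts in shControl and 0.0997% ± 0.00796 in shSQLE (SD, n = 3 each), and the mean of shControl replicates 2 and 3 was 0.196%. The 8 chains that passed the filter on low counts each had at least 103 counts in every library, and COL1A2 and COL3A1 did not pass. At a Benjamini-Hochberg adjusted p under 0.05, taken over the 12450 genes that edgeR's quasi-likelihood test covered, 5 of the 8 were called lower and 0 higher, where 2.84% of all genes were called lower and 0.369% higher. In 6 of the 8 every shSQLE library was below every shControl library, where this held for 12.1% of all genes. As the set was chosen on this contrast, the excess over these shares is not a result. The median log2 fold change was -0.75 over the 8 chains and -0.01 over all genes. Without shControl replicate 1 all 8 were called lower, while 4264 genes were called in all. In the 5 fits that left out another library 2 or 3 were. In bulk RNA, fewer cells that express a chain and less of its mRNA per cell cannot be told apart.

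**Figure D2:**
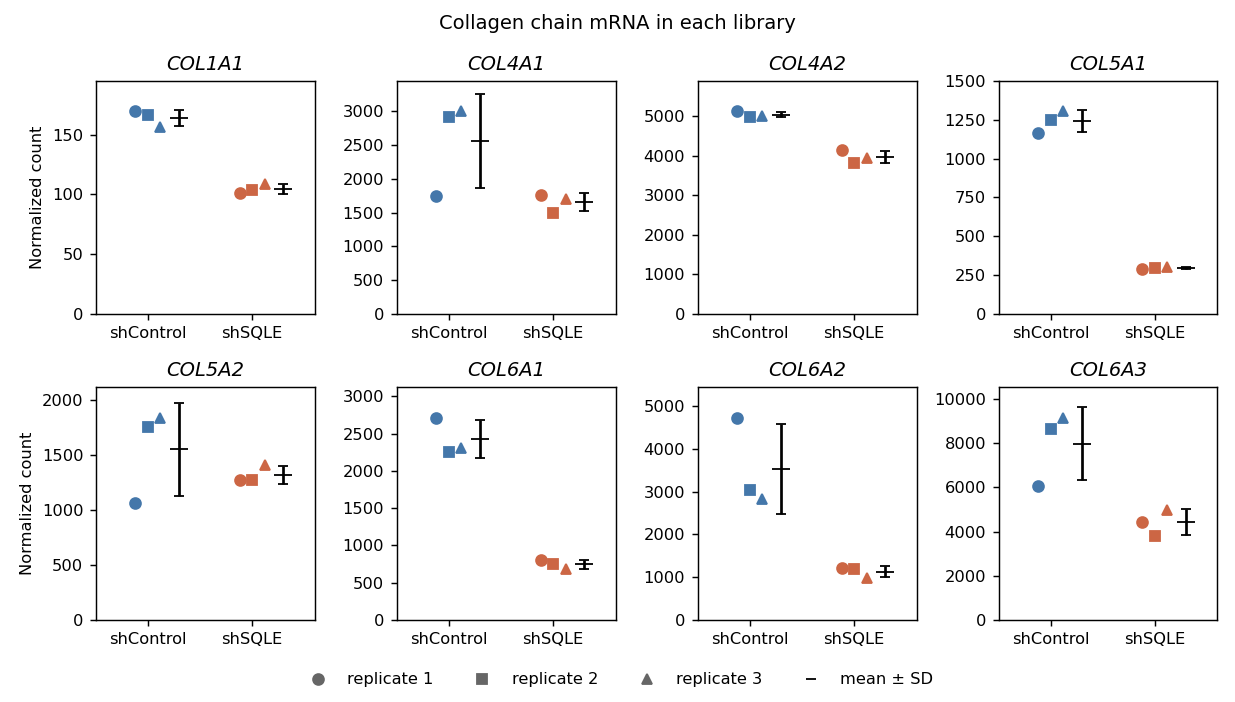
Normalized count (y axis) of each of the 8 tested chains in the 3 shControl (blue) and 3 shSQLE (orange) libraries, with the group mean ± SD in black and the replicate number by symbol. Each panel has its own linear axis from 0, on which COL5A1, COL6A1 and COL6A2 have the lowest shSQLE levels relative to shControl, and in COL4A1 and COL5A2 the shControl replicate 1 point lies among or below the shSQLE points.

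Of the type I chains, COL1A1 (ENSG00000108821, chromosome 17, 50184101 to 50201632, minus strand, hg38), which encodes the main chain of bone collagen, was present at a low level. Its normalized counts were 169.7, 166.4 and 157 in shControl replicates 1 to 3 and 100.9, 103.5 and 108.9 in shSQLE replicates 1 to 3. The shSQLE libraries were all lower, and the libraries of a group lay close together. The log2 fold change was -0.65 (SE 0.14), and -0.63 without shControl replicate 1. COL1A1 was called in the fit of all libraries and without shControl replicate 1, but in none of the fits that left out another library. COL1A2 (ENSG00000164692, chromosome 7, 94394895 to 94431227, plus strand), whose product is the partner chain of the type I trimer, had 0, 6 and 3 counts in the shControl libraries and 0 in each shSQLE library. It thus made up 9 of the 500 counts on both type I chains in shControl, or 1.8% (95% Clopper-Pearson interval 0.826% to 3.39%). In shSQLE it had 0 of 314, which allows a share of up to 0.955% by the limit of 3 counts and 1.17% by the upper end of the Clopper-Pearson interval, and all of these limits cover counting error only. COL3A1 (ENSG00000168542, chromosome 2, 188974373 to 189012746, plus strand), the chain of the type III fibrils that accompany type I in skin and vessels, had 1, 2 and 0 counts in shControl and 1, 0 and 0 in shSQLE. COL1A2 and COL3A1 did not pass the filter on low counts, so a difference between the groups was not tested for either. The mRNA partners for a type I heterotrimer were nearly all COL1A1 in both groups.

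The type IV genes COL4A1 (ENSG00000187498, chromosome 13, 110148963 to 110307157, minus strand) and COL4A2 (ENSG00000134871, chromosome 13, 110305812 to 110513209, plus strand) encode the chains found in nearly all basement membranes. Their loci overlap, but they shared no exonic base in GENCODE v44. COL4A1 had normalized counts of 1751, 2920 and 3000 in shControl and 1761, 1497 and 1707 in shSQLE. The groups overlapped, because shControl replicate 1 lay at the shSQLE level while the other 2 controls lay well above it. Its log2 fold change was -0.63 (SE 0.2) and not called, and -0.84 and called without shControl replicate 1. COL4A2 had normalized counts of 5120, 4987 and 5015 in shControl and 4132, 3817 and 3950 in shSQLE. These groups did not overlap and all 3 controls were close, but the step was small, with a log2 fold change of -0.35 (SE 0.09) that was not called, and of -0.33 without shControl replicate 1, which was. With offsets for GC content and length the values were -0.51 for COL4A1 and -0.22 for COL4A2, and neither was called. The RefSeq starts of both genes lie at the ends of the same stretch of DNA printed above. How far their values moved apart is given by their ratio within each library, described further on.

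Within type V, both chains were measured well but differed. COL5A1 (ENSG00000130635, chromosome 9, 134641803 to 134844843, plus strand), whose chain is present in each of the main type V trimers, had normalized counts of 1167, 1252 and 1306 in shControl and 287.9, 294.7 and 300.1 in shSQLE. The groups lay far apart, with little spread in either. The log2 fold change was -2.08 (SE 0.11), the farthest from 0 among the 8 chains, and ranged from -2.12 to -2.03 in the 6 fits that left out 1 library, with a call in each. COL5A2 (ENSG00000204262, chromosome 2, 189031898 to 189225312, minus strand), the partner of COL5A1 in fibril-associated type V, had 1068, 1752 and 1842 in shControl and 1272, 1270 and 1412 in shSQLE. Here shControl replicate 1 lay below all shSQLE libraries and the other controls above them. The log2 fold change was -0.24 (SE 0.2) and not called. Without shControl replicate 1 it was -0.45 and called, and with offsets for GC content and length it was -0.11 and not called. COL5A2 lies 19.2 kb from COL3A1 on chromosome 2, on the other strand.

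The type VI chains included the 1 with the highest count, COL6A3. COL6A1 (ENSG00000142156, chromosome 21, 45981770 to 46005050, plus strand), which encodes a short chain of the type VI monomer, had normalized counts of 2716, 2257 and 2310 in shControl and 802.9, 750.1 and 685.6 in shSQLE. COL6A2 (ENSG00000142173, chromosome 21, 46098112 to 46132848, plus strand) encodes the other short chain and begins 93.1 kb beyond the end of COL6A1, and it had 4731, 3027 and 2828 in shControl and 1219, 1182 and 984.6 in shSQLE. COL6A3 (ENSG00000163359, chromosome 2, 237324003 to 237414328, minus strand), which encodes the long chain of the monomer, had 6082, 8657 and 9166 in shControl and 4450, 3806 and 4980 in shSQLE. In each of these genes all shSQLE libraries were below all shControl libraries, but shControl replicate 1 was the highest control for COL6A1 and COL6A2 and the lowest for COL6A3. The log2 fold changes were -1.7 (SE 0.12) for COL6A1, -1.64 (SE 0.21) for COL6A2 and -0.85 (SE 0.18) for COL6A3. Without shControl replicate 1 they were -1.61, -1.37 and -1.01, so that the gap between the short chains and COL6A3 narrowed. COL6A1 was called in all 6 fits that left out 1 library, COL6A2 in 5, all but the fit without shSQLE replicate 3, and COL6A3 in 1, the fit without shControl replicate 1. With offsets for GC content and length the values were -1.6, -1.51 and -0.7, and those of COL1A1 and COL5A1 were -0.54 and -1.93, with all 5 called.

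**Figure D3:**
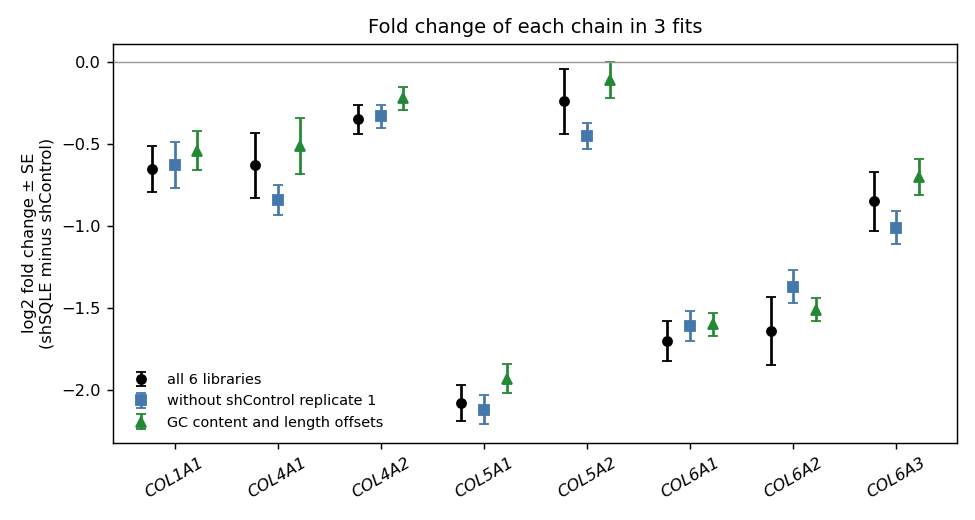
Log2 fold change of shSQLE over shControl with its standard error (y axis) for each tested chain, from all 6 libraries (black), without shControl replicate 1 (blue) and with offsets for GC content and transcript length (green). COL5A1, COL6A1 and COL6A2 lie below -1.3 in every fit, and COL4A2 and COL5A2 lie above -0.5 in every fit.

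To compare the chains of a trimer, the log2 ratio of their CPM was taken within each library, where the scaling between libraries cancels. A departure along GC content does not cancel between chains of unlike GC content. These ratios are not per length, so their differences between groups are read and not their levels. COL5A1 over COL5A2 was 0.13, -0.48 and -0.5 in shControl and -2.14, -2.1 and -2.23 in shSQLE. The groups did not overlap, and their means differed by -1.87 (SE 0.21), or by -1.66 without shControl replicate 1, so that COL5A1 was lower relative to its partner in every shSQLE library. COL6A1 over COL6A3 was -1.16, -1.94 and -1.99 in shControl and -2.47, -2.34 and -2.86 in shSQLE. These groups did not overlap either, and the difference was -0.86 (SE 0.31), or -0.59 without shControl replicate 1. For COL6A2 over COL6A3 the values were -0.36, -1.52 and -1.7 against -1.87, -1.69 and -2.34. Here shSQLE replicate 2 was just above shControl replicate 3, and the difference of -0.77 (SE 0.46) was -0.36 without shControl replicate 1. COL6A1 over COL6A2 was -0.8, -0.42 and -0.29 in shControl and -0.6, -0.65 and -0.52 in shSQLE. The difference of -0.09 (SE 0.16) was less than its error with overlapping groups, became -0.23 without shControl replicate 1 and turned to 0.02 without shControl replicate 3. COL4A1 over COL4A2 was -1.55, -0.77 and -0.74 in shControl and -1.23, -1.35 and -1.21 in shSQLE. The difference of -0.24 (SE 0.27) was also less than its error. Without shControl replicate 1 it was -0.51, and the other 2 controls then lay above all shSQLE libraries. The libraries of the groups thus did not overlap in the type V ratio and in COL6A1 against COL6A3, and overlapped for the other 3 pairs. In type V the groups lay well apart compared with the range within each, whereas for COL6A1 against COL6A3 the gap between the nearest libraries (-1.99 and -2.34) was narrower than the range within either group. With offsets for GC content and length, the group difference was -1.83 for COL5A1/COL5A2 and -0.91 for COL6A1/COL6A3. It was -0.82 for COL6A2/COL6A3, -0.09 for COL6A1/COL6A2 and -0.26 for COL4A1/COL4A2.

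**Figure D4:**
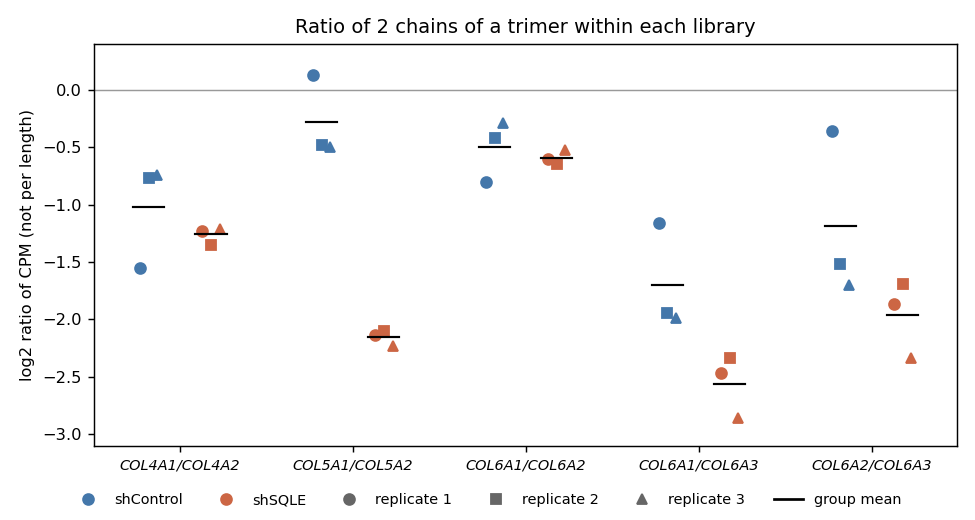
Log2 ratio of the CPM of 2 chains of a trimer (y axis, not corrected for length) in each shControl (blue) and shSQLE (orange) library, with the group mean as a black line. COL5A1/COL5A2 and COL6A1/COL6A3 have groups that do not overlap, and shControl replicate 1 (blue circle) lies apart from the other controls in all 5 ratios.

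The order of the levels was compared per length of the gene, as CPM per kb of exonic sequence. In shControl the order was COL6A2 (49.1 ± 14.5 CPM per kb), COL6A1 (32.5 ± 3.36), COL6A3 (27.5 ± 5.7), COL4A2 (19.4 ± 0.27), COL5A2 (15.7 ± 4.29), COL4A1 (12.9 ± 3.54), COL5A1 (8.25 ± 0.463) and COL1A1 (1.35 ± 0.0546), each as mean and SD of 3 libraries. COL6A1 and COL6A3, COL4A2 and COL5A2, and COL5A2 and COL4A1 were neighbours that differed by less than the larger of their SDs. In shSQLE the order was COL6A2 (15.7 ± 1.75), COL4A2 (15.3 ± 0.608), COL6A3 (15.2 ± 2.03), COL5A2 (13.4 ± 0.825), COL6A1 (10 ± 0.788), COL4A1 (8.37 ± 0.704), COL5A1 (1.96 ± 0.0408) and COL1A1 (0.86 ± 0.034), and from COL6A2 to COL5A2 each neighbour differed by less than the larger SD. COL6A1 was in the second place in shControl and in the fifth in shSQLE by this length. COL1A2 and COL3A1 were at 0.0191 and 0.0108 CPM per kb in shControl. The exonic length counts the exons of all annotated transcripts, which is long for some of these genes. Per kb of the longest transcript, the levels in shControl were 76 for COL6A2, 58 for COL4A2, 56.1 for COL6A3, 42.8 for COL6A1, 29 for COL4A1, 16.9 for COL5A2, 10.9 for COL5A1 and 2.06 for COL1A1, and in shSQLE they were 45.6 for COL4A2, 31.1 for COL6A3, 24.3 for COL6A2, 18.8 for COL4A1, 14.3 for COL5A2, 13.2 for COL6A1, 2.58 for COL5A1 and 1.31 for COL1A1. The places of COL6A1, COL4A2, COL4A1 and COL5A2 in shControl, and those of every chain in shSQLE but COL5A1 and COL1A1, depend on the length used. COL6A1 stood lower in the order in shSQLE than in shControl by both lengths. In shControl replicates 2 and 3 alone, the mean by exonic length was 40.7 for COL6A2, 30.7 for COL6A3, 30.5 for COL6A1, 19.2 for COL4A2, 18.2 for COL5A2, 15 for COL4A1, 8.5 for COL5A1 and 1.33 for COL1A1, so that COL6A1 and COL6A3 changed places. The ratio of COL5A1 to COL5A2 in level per length was 0.55 ± 0.144 in shControl and 0.147 ± 0.00656 in shSQLE by exonic length, and 0.679 and 0.181 by the longest transcript. For COL6A1 to COL6A3 it was 1.24 ± 0.427 and 0.667 ± 0.119, and 0.801 and 0.43 by the longest transcript, so that only the direction between the groups, and not which chain was higher in shControl, was the same under both lengths.

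Of the other 34 collagen genes, 17 were tested, 14 had a log2 fold change below 0, 6 were called lower and 0 higher, with a median of -0.68 (-0.8 without shControl replicate 1). Over all genes tested 51.6% were below 0, 2.84% were called lower and 0.369% higher. The counts from the fit of all libraries in this and the following lists stand beside these shares. Counts without shControl replicate 1 stand beside the 2300 genes called lower and 1964 called higher of 12570 tested in that fit. COL5A3, the third type V chain, fell from 39.7 ± 5.3 to 6.601 ± 4.46 normalized counts, with a log2 fold change of -2.56 (adjusted p = 0.0144). COL9A3 and COL16A1, chains of fibril-associated collagens, fell with log2 fold changes of -1.35 (adjusted p = 0.00575) and -1.08 (adjusted p = 0.0144). COL7A1, the chain of the anchoring fibrils below epithelia, was at -1.25 (adjusted p = 0.00989), and the basement membrane collagens COL15A1 and COL18A1 were at -1.46 (adjusted p = 0.0264) and -0.75 (adjusted p = 0.0477). Fits that left out 1 library called COL9A3 in 5 of 6, COL5A3 and COL7A1 in 3, COL16A1 in 2 and COL15A1 and COL18A1 in 1. The log2 fold changes without shControl replicate 1 were -2.65 for COL5A3, -1.26 for COL9A3, -0.97 for COL16A1, -1.08 for COL7A1, -1.67 for COL15A1 and -0.59 for COL18A1. COL4A5 and COL4A6, a pair of type IV chains of other basement membranes, were at -0.61 and -0.68 and not called. Other fibrillar collagens did not pass the test, with 0.35 for COL11A2 and -0.17 for COL27A1. The transmembrane collagen COL13A1 was at 0.29 (adjusted p = 0.263), with every shSQLE library above every shControl library, as in 10% of all genes tested. It had the highest mean count among the higher ones, 1597 normalized counts in shSQLE.

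**Figure D5:**
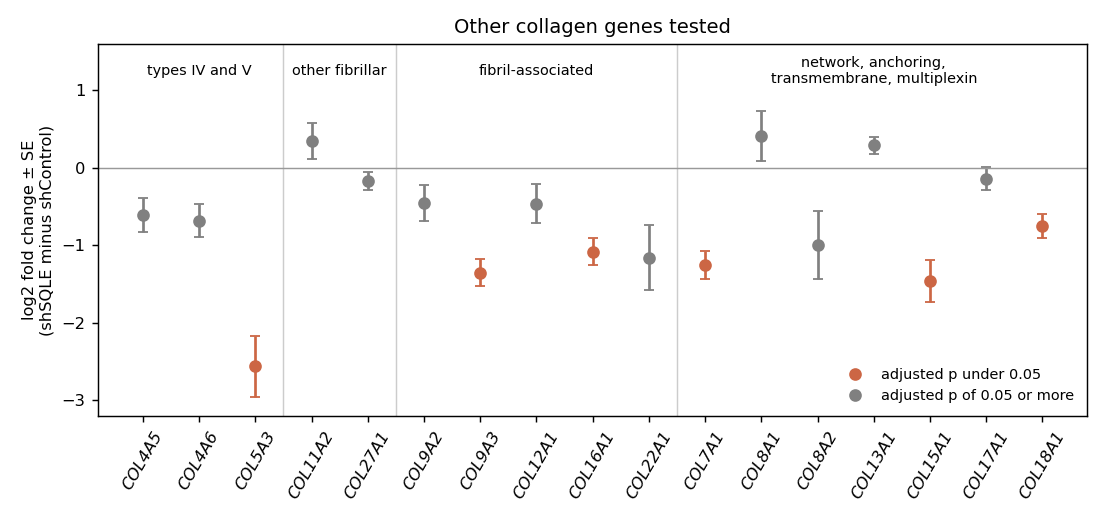
Log2 fold change of shSQLE over shControl with its standard error (y axis) for the 17 other collagen genes tested, by collagen class, with those past an adjusted p of 0.05 in orange. COL5A3, COL9A3, COL16A1, COL7A1, COL15A1 and COL18A1 were called lower, and COL11A2, COL8A1 and COL13A1 have values above 0.

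Collagen chains are hydroxylated, folded and exported by a shared set of enzymes and chaperones. Of 23 tested genes of procollagen modification, folding and secretion, 0 were called in either direction by edgeR. DESeq2 called 2 lower, and 9 were called lower and 2 higher without shControl replicate 1. The median log2 fold change was -0.13, and -0.18 without that library. The smallest p-values belonged to P4HA2 and P4HB, subunits of prolyl 4-hydroxylase, at -0.74 (adjusted p = 0.0595) and -0.63 (adjusted p = 0.075), or -0.58 and -0.46 without shControl replicate 1. SERPINH1, the collagen-specific chaperone HSP47, was at -0.19. Among 10 genes of propeptide removal and crosslinking, with a median of 0, LOX fell from 315.6 ± 53.3 to 174.9 ± 23.2 normalized counts (log2 fold change -0.85, adjusted p = 0.0442). LOX, lysyl oxidase, starts the covalent crosslinks of fibrils, and it was called in 1 of 6 fits with a library left out, and its value was -0.98 without shControl replicate 1. Its relatives LOXL1 (-0.67) and LOXL3 (0.38) had opposite signs and did not pass the test.

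Among the 11 collagen receptors tested, with a median of -0.2, 2 were called lower and 0 higher. These were ITGA1 and ITGA11, collagen-binding integrin alpha chains, with log2 fold changes of -1.55 (adjusted p = 0.0125) and -1.14 (adjusted p = 0.0174). With each library left out in turn, ITGA1 kept its call in 3 of 6 fits and ITGA11 in 1, their values were -1.77 and -1.23 without shControl replicate 1, and the locus of ITGA1 holds PELO on the same strand, so its reads may be shared. ITGA2, another collagen-binding alpha chain, was at -1.11 (adjusted p = 0.0896), while their common beta chain ITGB1 was at 0.06 and the receptor kinases DDR1 and DDR2 were at -0.12 and -0.03. Of 6 fibril-binding proteoglycans and matrix partners tested, FN1 and TGFBI were called lower and 0 genes higher. Fibronectin (FN1), on which cells assemble collagen fibrils, had a log2 fold change of -2.88 (adjusted p = 0.000548) and was called in all 6 fits that left out 1 library. TGFBI, a collagen-binding matrix protein, was at -0.53 (adjusted p = 0.038) and called in 1 of them. Without shControl replicate 1 the values were -3.01 and -0.45, and 6 receptors and 4 fibril-binding partners were called lower.

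Of the 14 tested partners of type IV collagen in the basement membrane, 5 were called lower and 0 higher, with a median of -0.41. LAMA4, a laminin chain, fell from 130.2 ± 19 to 20.03 ± 8.02 normalized counts, with a log2 fold change of -2.7 (adjusted p = 0.00302), and was called in all 6 fits that left out 1 library. NID2, a nidogen that links laminin to type IV collagen, was at -1.53 (adjusted p = 0.00987; 4 of 6 fits), and LAMA3 was at -1.14 (adjusted p = 0.0211; 1 of 6 fits). These values were, without shControl replicate 1, -2.81 for LAMA4, -1.66 for NID2 and -1.29 for LAMA3. In that fit 10 of the 14 genes were called lower and 1 higher, where 2300 and 1964 of all 12570 genes tested were. The widely expressed laminin chains LAMB1 and LAMC1 were at -0.06 and -0.15. The proteoglycan HSPG2 (perlecan) was at 0.31 (adjusted p = 0.307), with every shSQLE library above every shControl library, as in 10% of all genes tested. Of the 11 enzymes tested that cut collagen, all had values below 0, with a median of -0.31, and 4 were called lower and 0 higher. The interstitial collagenase MMP1 fell from 28270 ± 1010 to 12230 ± 446 normalized counts (log2 fold change -1.21, adjusted p = 0.000979), and the gelatinase MMP2 from 477.1 ± 33.1 to 197.8 ± 14.6 (-1.27, adjusted p = 0.00259), both with a call in all 6 fits with a library left out. MMP13 was at -2.59 (adjusted p = 0.023; 1 of 6 fits), and the lysosomal protease CTSB was at -0.68 (adjusted p = 0.0261; 2 of 6 fits). Leaving out shControl replicate 1 gave -1.23 for MMP1, -1.22 for MMP2, -2.9 for MMP13 and -0.57 for CTSB, and 5 were called lower. MMP14, the membrane-bound collagenase, was at -0.11.

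The genes whose pattern over the 6 libraries was most like each trimer were listed by Pearson's r of log2 CPM, among about 9877 genes with a mean count of at least 100. For type VI they were BMF (r = 1 after rounding), L1CAM (1) and FOXF1 (0.998), and for type V they were GREM1 (0.999), ERO1B (0.998) and NPC1 (0.998). For type IV they were CERT1 (0.999), TMCO3 (0.997) and RAB31 (0.997), and for COL1A1 they were LPCAT1 (0.998), CDCP1 (0.997) and KDELR3 (0.996). With 6 libraries in 2 groups such values were common: 14 genes for COL1A1, 27 for type IV, 43 for type V and 33 for type VI were above 0.99. The points share the group difference and the departure of shControl replicate 1, so the values are a description.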

How the data were processed

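Poly(A) RNA of 6 U2OS libraries was read as paired ends. Per the submitters' processing notes, the authors used fastp 0.20.0, STAR 2.7.9a, hg38 and featureCounts 2.0, and the deposited table holds whole-number counts for each gene, not normalized. The annotation release, strand setting and treatment of multi-mapping reads are not given in the sources used here, so reads of overlapping or antisense genes may be shared. Of 19937 genes, 3942 had no count and 32 had no symbol.

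Groups came from the genotype labels. Genes were filtered with filterByExpr, normalized by TMM and tested with edgeR 4.0.16 (R 4.3.3) quasi-likelihood, group as the only term, with Benjamini-Hochberg adjustment over 12450 genes at 0.05. The common dispersion was 0.0267. Totals of 12212378 to 14393292 counts set the precision, and 3 or fewer counts were taken as the floor. No pair of libraries agreed within sampling noise (lowest chi-square per degree of freedom 2.83). Chain ratios were differences of log2 CPM (prior count 2), and lengths and GC content came from GENCODE v44. Scripts were tested on simulated data. Alternatives were DESeq2 1.42.0, other size factors and filters, a replicate block, each library left out, offsets for GC content and length (mgcv 1.9.3), a prior count of 0.5 and another length.

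The chains, the lists and the alternatives were chosen with earlier results of these data known. Named are SQLE, the 10 chains, every other collagen called, and from each other list up to 4 called genes with the smallest p (otherwise 2), plus the 3 genes most like each trimer. COL4A5, COL4A6, COL11A2, COL27A1, COL8A1, COL13A1, SERPINH1, LOXL1, LOXL3, ITGA2, ITGB1, DDR1, DDR2, LAMB1, LAMC1, HSPG2 and MMP14 were named after their values were seen, as examples that did not pass. Some genes that the rule names are counted but not reported by name here.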

Additional observations from a re-analysis of the deposited data

How the results depend on the processing

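The direction of the 8 chains was the same under every alternative run. Calls at an adjusted p of 0.05 were lost for COL1A1 with no filter (log2 fold change -0.65), with at least 10 counts in every library (-0.66) and with the replicate block (-0.65), and for COL6A3 with library size only (-0.9) and at least 10 counts (-0.86). COL4A2 gained a call with DESeq2 (-0.33). At least 10 counts in every library left 3 of the 8 chains called. Without 1 library each in turn, the log2 fold changes ranged from -0.67 to -0.63 for COL1A1, -0.84 to -0.48 for COL4A1, -0.37 to -0.32 for COL4A2, -0.45 to -0.09 for COL5A2, -1.77 to -1.37 for COL6A2 and -1.01 to -0.73 for COL6A3. The number of chains called lower ranged from 2 (without shSQLE replicate 3) to 8 (without shControl replicate 1).

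Over all genes, 354 were lower and 46 higher, against 556 and 158 with DESeq2, 1081 and 1506 with offsets for GC content and length, 101 to 2300 lower and 4 to 1964 higher without 1 library, with the highest of both counts without shControl replicate 1. The median of all tested genes was -0.01, and it was 0.06 with the offsets and -0.05 with library size only. With these offsets the lower calls were 2 for chains of types IV, V and VI that are not among the 10, 7 for procollagen modification, 4 each for propeptide removal and crosslinking, receptors and fibril-binding partners, and 9 for basement membrane partners, and higher calls were 1 for network and remaining collagens, 2 for procollagen modification, 1 for propeptide removal and 1 for basement membrane partners. At least 10 counts in every library left 0 calls among the other chains of types IV, V and VI and 0 in propeptide removal, as did library size only for the latter (0), which gave 2 in procollagen modification. DESeq2 called 2 in procollagen modification and 4 receptors. Without 1 library, lower calls ranged from 0 to 3 for the other chains of types IV, V and VI, 0 to 3 for fibril-associated collagens, 0 to 3 for network and remaining collagens, 0 to 9 for procollagen modification, 0 to 3 for propeptide removal, 0 to 6 for receptors, 1 to 4 for fibril-binding partners, 2 to 10 for basement membrane partners and 2 to 5 for degrading enzymes. Higher calls ranged from 0 to 1 for network collagens, 0 to 2 for procollagen modification, 0 to 1 for propeptide removal and 0 to 1 for basement membrane partners.

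Deviations of same-numbered libraries correlated at 0.14, -0.43 and 0.54, and not every library correlated best with its own number. With 3 libraries per group and shControl replicate 1 apart, such values cannot show whether same-numbered libraries were handled together. The replicate block called 4 of the 8 chains, 362 genes lower and 34 higher, with 2 calls in procollagen modification, 0 in propeptide removal, 4 among receptors and 1 among fibril-binding partners. The difference in the COL6A1/COL6A2 ratio ranged from -0.23 to 0.02 without 1 library, with the change of sign without shControl replicate 3. By the longest transcript, the ratios of levels per length in shSQLE were 0.411 for COL4A1/COL4A2, 0.181 for COL5A1/COL5A2, 0.544 for COL6A1/COL6A2, 0.43 for COL6A1/COL6A3 and 0.797 for COL6A2/COL6A3, and 0.801 for COL6A1/COL6A3 in shControl. Fewer genes, other lengths or fewer libraries enter these fits by construction, and otherwise the cause was not tested. COL1A2 and COL3A1 were too shallow for any fold change.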
